A study of Homo sapiens with 15 samples.

Results

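The cell cycle and proliferation genes are a set of 38 genes in RNA sequencing data of xenograft tumors grown from human cholangiocarcinoma (CCA) cell lines. They were chosen by symbol as known regulators and markers of cell division, and each matched exactly 1 row of the 58735 genes in the count table. All 38 passed the filter on low counts, which left 21019 genes. Here 11 of them act in G1 phase (D- and E-type cyclins, their kinases, RB1 and the E2F factors), 10 in DNA replication and 17 in G2 phase and mitosis. The study asked how tumors with a high or a low response to an antibody against claudin-1 differ, and the tumors here did not receive the antibody. It used 15 tumors, 5 each of HuCC-A1, HuCC-T1 and EGI-1, and HuCC-A1 is given as the high responder and EGI-1 as the low responder. These labels are relative, since the paper reports a significant reduction of growth by the antibody in each of these models.

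HuCC-A1 and HuCC-T1 are lines from intrahepatic CCA and EGI-1 is a line from extrahepatic CCA. The tumors grew in NRG mice, a NOD strain deficient in Rag1 and Il2rg that was 8 weeks old and has no lymphocytes of its own. All tumors were controls. HuCC-A1 hosts received phosphate-buffered saline each week for 6 weeks and EGI-1 hosts for 4 weeks, and the duration for HuCC-T1 hosts is not given in the sources used here. Each model is a single cell line, so line, site of origin, response and, for HuCC-A1 and EGI-1, duration cannot be told apart, and the p-values below measure the spread among tumors of a line.

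Cells enter division when D-type cyclins and their partners CDK4 and CDK6, then cyclin E and CDK2, phosphorylate the retinoblastoma protein RB1 and release E2F factors. E2F factors drive the genes of DNA replication, such as the MCM helicase, and a later program under FOXM1 and the MuvB complex drives the genes of mitosis. CDK inhibitors hold back the kinases. In CCA, as in other carcinomas, loss of the p16 gene CDKN2A and gain of G1 cyclins are recurrent, and MKI67 (Ki-67) is the usual pathology marker of dividing cells.

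Total counts per tumor were 20001412 to 33585265 in HuCC-A1, 26163778 to 33984103 in HuCC-T1 and 34239460 to 44067878 in EGI-1 tumors, and the 38 genes together took 0.264 to 0.325%, 0.249 to 0.393% and 0.286 to 0.342% of them. Summed over 8 fixed markers, bile duct epithelium reached 6020 to 8290 CPM (counts per 1000000 counts of a library, scaled by TMM factors) in HuCC-A1, 6800 to 18500 CPM in HuCC-T1 and 15300 to 26600 CPM in the EGI-1 tumors, with no marker at 0 in all tumors of a model. The 10 fibroblast markers summed to 470 to 1000, 129 to 535 and 87.7 to 142 CPM in the same order of models, while the sums of 5 hepatocyte and of 4 red blood cell markers stayed at or below 1.58 CPM. Summed over 6 endothelial markers the ranges were 15.4 to 31.2, 13.3 to 24.9 and 3.42 to 4.46 CPM, and mitochondrial genes took 4.5 to 11.3%, 5.97 to 8.36% and 3.94 to 5.64% of the counts, in that order again. The epithelial, fibroblast and endothelial sums thus lay apart between HuCC-A1 and EGI-1 tumors, and the endothelial sum and the mitochondrial share between HuCC-T1 and EGI-1 tumors. HuCC-A1 and HuCC-T1 tumors overlapped in each of these sums. At an adjusted p under 0.05 (edgeR test below), 4 of 9 tested fibroblast markers were higher and 4 lower in HuCC-A1 than HuCC-T1 tumors. HuCC-A1 tumors were higher in 6 and lower in 1 of these 9 than EGI-1 tumors. Of 8 epithelial markers, 2 were higher and 5 lower in HuCC-A1 than EGI-1 tumors, and 1 higher and 5 lower in HuCC-A1 than HuCC-T1 tumors. HuCC-T1 tumors were higher in 6 and lower in 1 of the 9 fibroblast markers than EGI-1 tumors, and higher in 1 and lower in 6 of the 8 epithelial markers. Of all genes, 56.3% passed in HuCC-A1 against HuCC-T1, 55.4% in HuCC-A1 against EGI-1 and 52.3% in HuCC-T1 against EGI-1 tumors. The part of all these in the differences below was not tested. In bulk RNA, fewer cells of a type and less RNA per cell cannot be told apart. Whether mouse reads were taken out is not given, so fibroblast and endothelial sums need not stand for human cells of these types.

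HuCC-T1 replicate 5 stood apart from the other tumors of its model and decided several of the counts below. It had the highest level of its model in 31 of the 38 genes and in 16 of the 17 mitosis genes, whereas no gene was lowest there. The mean log2 CPM of the mitosis genes was 6.26 in this tumor, against 5.51, 5.38, 5.15 and 4.95 in HuCC-T1 replicates 1 to 4. Its epithelial sum of 9460 CPM and fibroblast sum of 520 CPM lay within the range of the other HuCC-T1 tumors. Counts of calls that use HuCC-T1 tumors are therefore given with and without it. Since it was picked by its levels in these same genes, leaving it out lowers most HuCC-T1 means by that choice. The counts and p-values without it describe its weight and are no independent support.

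Over all 38 genes, HuCC-A1 tumors were higher in 7 and lower in 13 than EGI-1 tumors (edgeR quasi-likelihood test, Benjamini-Hochberg adjusted p under 0.05, which is the threshold of every call below). These 20 are 52.6% of the set, against 55.4% of all genes tested, with 29.4% of all genes higher and 26.0% lower. HuCC-A1 tumors were higher in 12 and lower in 7 than HuCC-T1 tumors, or 50% of the set, against 56.3% of all genes (29.1% higher and 27.2% lower). HuCC-T1 tumors were higher in 2 and lower in 18 than EGI-1 tumors, or 52.6% of the set, against 52.3% of all genes (27.3% higher and 25.0% lower). The share of the set that passed was thus near that of all genes in each comparison.

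Without HuCC-T1 replicate 5 the counts were 23 higher and 6 lower for HuCC-A1 against HuCC-T1 tumors, and 2 higher and 25 lower for HuCC-T1 against EGI-1 tumors. Of all genes, 28.8% were then higher and 26.5% lower in HuCC-A1 against HuCC-T1 tumors, and 25.9% were higher and 24.8% lower in HuCC-T1 against EGI-1 tumors. For HuCC-A1 against HuCC-T1 tumors, the count of genes higher was 7 without HuCC-T1 replicate 3 or 4, against 12 with all tumors. The mean level was lowest in HuCC-T1 tumors for 24 of the 38 genes, or 28 without HuCC-T1 replicate 5. It was highest in HuCC-A1 tumors for 16 genes and in EGI-1 tumors for 17, or for 15 and 20 without that tumor.

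Beside the 55.4% of all genes that passed between HuCC-A1 and EGI-1 tumors, the share called was 54.5% for G1, 90% for replication and 29.4% for mitosis genes. Between HuCC-A1 and EGI-1 tumors 9 of 10 replication genes passed, 2 higher and 7 lower, against 6 of 11 G1 genes, 3 higher and 3 lower, and 5 of 17 mitosis genes, 2 higher and 3 lower. The median log2 fold change was -0.92 for replication genes, -0.10 for G1 genes and 0.04 for mitosis genes, beside 0.06 for all genes. Of the 38 genes, 13 passed without any overlap between the tumors of HuCC-A1 and EGI-1, against 43.5% of all genes. This held for 4 of the 38 between HuCC-A1 and HuCC-T1 tumors (38.3% of all genes) and for 12 of the 38 between HuCC-T1 and EGI-1 tumors (36.8% of all genes). Leaving out HuCC-T1 replicate 5, these were 17 of 38 (41.7% of all genes) and 23 of 38 (39.6% of all genes), and 14 of 38 (43.4% of all genes) between HuCC-A1 and EGI-1 tumors. The comparisons share tumors, so they are not independent. With all tumors, no comparison called 9 genes, of which 8 act in mitosis and the other is CCNE2. With HuCC-T1 replicate 5 left out, 4 genes were called in no comparison, which were CCNE2, CCNA2, BUB1B and MKI67.

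**Figure D1:**
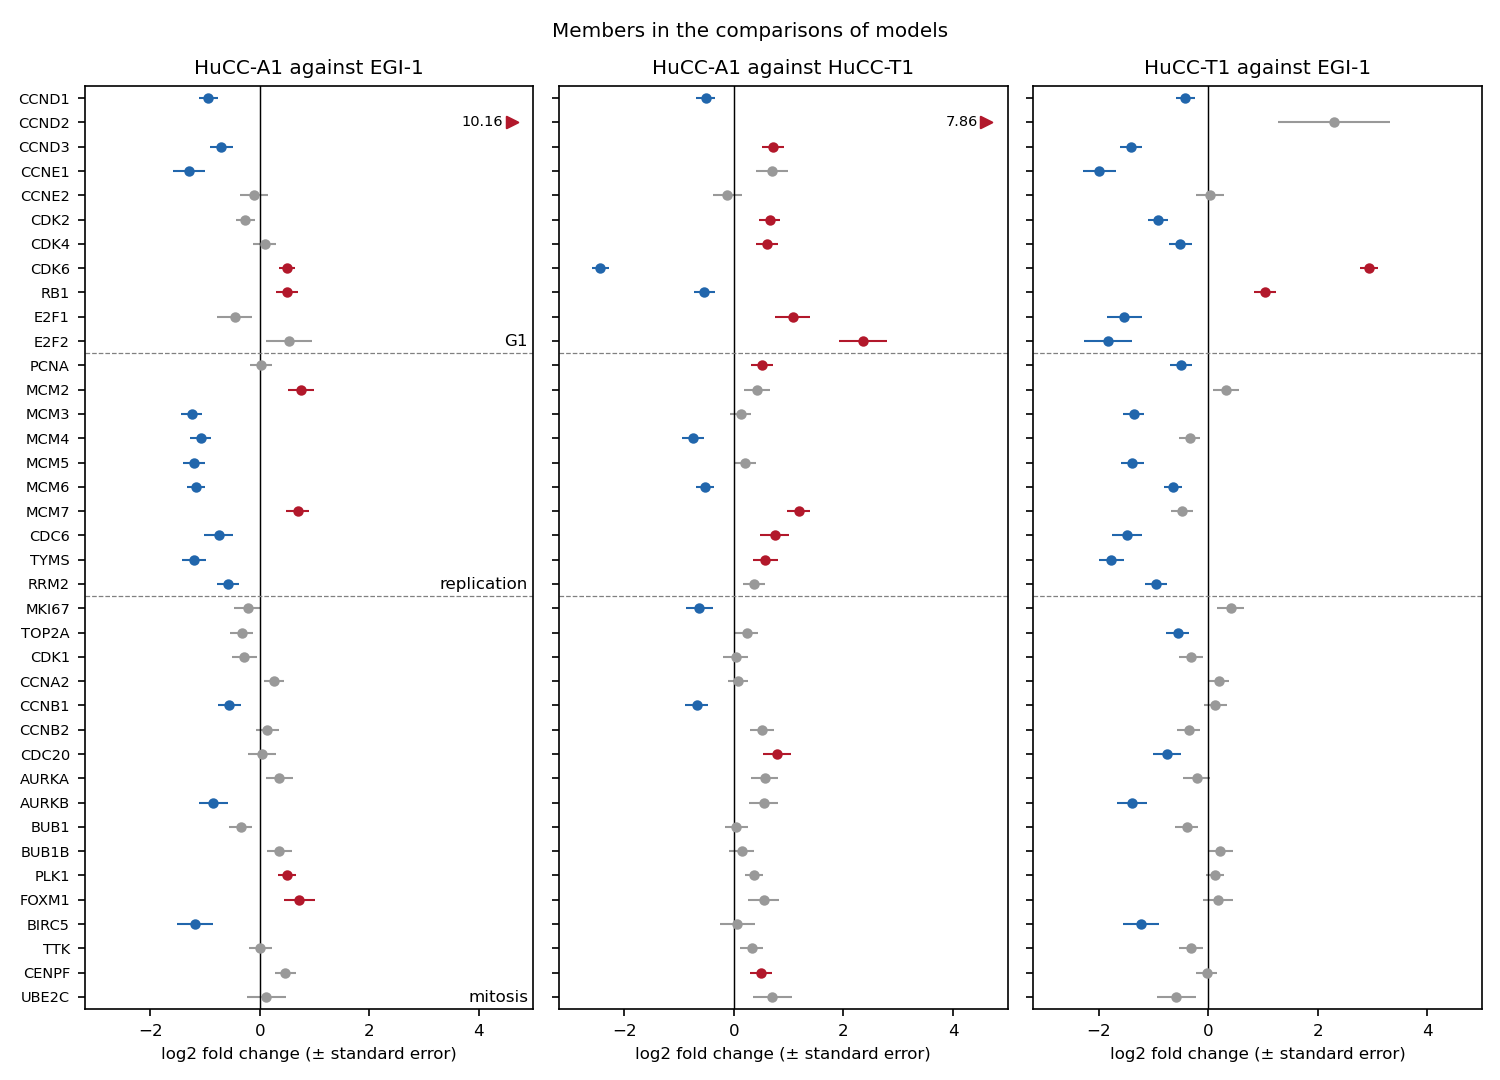
Log2 fold change of each of the 38 genes on the x axis with its standard error, in HuCC-A1 against EGI-1, HuCC-A1 against HuCC-T1 and HuCC-T1 against EGI-1 tumors. Red points passed as higher, blue points as lower and grey points did not pass, and arrowheads with their values stand for CCND2, which lies beyond the axis at 10.16 and 7.86. Replication genes lie mostly left of 0 in the comparisons with EGI-1, while most mitosis genes are grey.

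The sequences at the start sites differed between the roles. The letters searched were taken because they are known from promoters of cell cycle genes, and the roles follow the known function of the genes. The shares below are therefore a description and no independent support. They come from a reference genome and say nothing about differences between the models. RefSeq windows on GRCh38.p14, from 250 bases before to 50 bases after the start site, were at hand for 27 of the 38 genes. Where a gene had several, the window nearest to its annotated start was taken. Some windows still lay over 1000 bases from that start, those of RB1 by 172724, CDK4 by 3703, RRM2 by 1870, CCND3 by 1669 and PLK1 by 1233 bases. Of these, RRM2 and PLK1 count among the matches below. RB1, CDK4 and CCND3 held none of the searched letters and count among the 7 G1 windows. The G1 shares below may therefore be too low for windows at the annotated starts. Windows were searched on both strands for the cell cycle genes homology region (CHR) TTTGAA, known to bind the MuvB complex, for the CCAAT box CCAAT, known to bind NF-Y, and for the E2F-type letters TTGGCGC and TTCGCGC, which overlap on opposite strands where they stand together in TTGGCGCGAA.

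The CHR letters were in 8 of 12 mitosis windows and in 0 of 8 replication and 0 of 7 G1 windows, against 15.2% of 35116 windows of all genes. The E2F-type letters were in 6 of 8 replication windows, 2 of 12 mitosis windows and 2 of 7 G1 windows, against 5.06% of all. CCAAT was in 11 of 12 mitosis, 6 of 8 replication and 1 of 7 G1 windows, against 34.6% of all. A match is a description of letters and does not show that a factor binds there.

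The 250 bases before the start are printed for 5 genes, to set mitosis windows with CHR letters (MKI67 and CDC20) beside a replication window with E2F-type letters (MCM6), a G1 factor with both E2F-type and CCAAT letters (E2F1) and CDK6, a G1 kinase with none of them. The sequences run 5′ to 3′ on the strand of the gene, from RefSeq on GRCh38.p14, and capitals mark the searched letters on either strand (TTCAAA is CHR, ATTGG is CCAAT and GCGCGAA is TTCGCGC on the other strand). They are MKI67 at chr10:128126424-128126673 on the minus strand, CDC20 at chr1:43358731-43358980 on the plus strand, MCM6 at chr2:135876444-135876693 on the minus strand, E2F1 at chr20:33686386-33686635 on the minus strand and CDK6 at chr7:92836574-92836823 on the minus strand.
MKI67: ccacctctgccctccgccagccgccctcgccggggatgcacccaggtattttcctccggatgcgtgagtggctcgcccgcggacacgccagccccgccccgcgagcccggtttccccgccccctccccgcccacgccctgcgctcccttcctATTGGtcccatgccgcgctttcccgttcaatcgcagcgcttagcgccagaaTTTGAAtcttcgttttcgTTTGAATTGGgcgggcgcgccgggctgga
CDC20: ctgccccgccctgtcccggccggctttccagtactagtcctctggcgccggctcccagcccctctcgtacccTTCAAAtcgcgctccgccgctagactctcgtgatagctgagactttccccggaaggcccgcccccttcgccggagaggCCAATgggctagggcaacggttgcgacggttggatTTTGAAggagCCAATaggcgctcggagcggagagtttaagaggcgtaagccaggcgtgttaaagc
MCM6: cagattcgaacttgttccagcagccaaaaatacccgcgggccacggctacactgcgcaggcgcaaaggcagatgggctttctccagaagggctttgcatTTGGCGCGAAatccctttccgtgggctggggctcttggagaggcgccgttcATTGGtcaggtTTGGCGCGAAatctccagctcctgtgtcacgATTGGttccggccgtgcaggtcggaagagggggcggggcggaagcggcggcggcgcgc
E2F1: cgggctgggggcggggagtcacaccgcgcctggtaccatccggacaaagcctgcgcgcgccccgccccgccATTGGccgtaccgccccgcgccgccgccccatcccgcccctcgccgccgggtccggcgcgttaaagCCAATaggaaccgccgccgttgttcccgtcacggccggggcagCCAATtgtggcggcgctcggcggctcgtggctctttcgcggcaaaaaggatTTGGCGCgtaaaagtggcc
CDK6: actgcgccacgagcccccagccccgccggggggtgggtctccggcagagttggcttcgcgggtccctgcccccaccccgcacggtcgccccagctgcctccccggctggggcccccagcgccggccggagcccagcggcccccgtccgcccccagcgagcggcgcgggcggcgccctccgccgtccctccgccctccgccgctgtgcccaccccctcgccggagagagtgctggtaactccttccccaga

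In MKI67 the CHR letters began at -47 and -29 from the start site, and the copy at -29 runs into a CCAAT box on the other strand in TTTGAATTGG. CDC20 had CHR letters at -178 and -65 and CCAAT boxes at -100 and -55. MCM6 held TTGGCGCGAA at -151 and at -89, and CCAAT boxes at -100 and -58 on the other strand. E2F1 had its E2F-type letters at -19.

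Among the D-type cyclins, the regulatory partners of CDK4 and CDK6, CCND2 marked HuCC-A1 tumors. CCND2 (chr12:4273772-4305350, plus strand, GRCh38) reached 92.3, 101, 99.4, 68.6 and 107 CPM in HuCC-A1 tumors, against 1.53, 0, 0.15, 0.106 and 0.156 CPM in HuCC-T1 tumors and 0, 0.393, 0, 0.0291 and 0 CPM in the EGI-1 tumors. No HuCC-A1 tumor overlapped with a tumor of another model. CCND2 passed the filter on low counts through HuCC-A1 tumors alone, so the tests below add no support beyond these levels. It was not tested where at least 10 counts in every library were asked for. The log2 fold change was 10.16 ± 0.885 (SE) against EGI-1 tumors (adjusted p = 4.33e-08) and 7.86 ± 0.762 against HuCC-T1 tumors (adjusted p = 1.7e-07). Without EGI-1 replicate 2 the log2 fold change against EGI-1 tumors was 13.09, and without HuCC-T1 replicate 1 that against HuCC-T1 tumors was 9.71. Of the exon bases of CCND2, 13.8% lie in another annotated gene on the same strand, where reads could be split.

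HuCC-T1 and EGI-1 tumors held only 60 and 14 counts of CCND2, 48 of them in HuCC-T1 replicate 1 and 13 in EGI-1 replicate 2. HuCC-T1 against EGI-1 tumors did not pass (log2 fold change 2.30 ± 1.02, adjusted p = 0.0675), but did without EGI-1 replicate 2 (5.24, adjusted p = 0.00494) and without HuCC-T1 replicate 2 (2.62, adjusted p = 0.032). Without HuCC-T1 replicate 1 the log2 fold change was 0.43 (adjusted p = 0.737).

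CCND1, the D-type cyclin with the highest level, ran the other way. It had 421, 324, 269, 228 and 335 CPM in HuCC-A1 tumors, against 528, 407, 330, 531 and 460 CPM in HuCC-T1 tumors and 588, 575, 602, 713 and 549 CPM in the EGI-1 tumors. HuCC-A1 tumors were 1.92-fold lower than EGI-1 tumors with no overlap (log2 fold change -0.94 ± 0.174, adjusted p = 0.000185) and 1.43-fold lower than HuCC-T1 tumors (adjusted p = 0.0167), with overlap.

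HuCC-T1 tumors were 1.34-fold lower in CCND1 than EGI-1 tumors (adjusted p = 0.0475). This call was lost, at adjusted p values of 0.0509 to 0.125, without any 1 of HuCC-A1 replicates 2, 3 and 5, HuCC-T1 replicates 2, 3 and 5 and EGI-1 replicates 1, 2, 3 and 4.

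CCND3 had 56.7, 86.3, 45.9, 40.2 and 65.6 CPM in HuCC-A1 tumors, against 32.4, 23.5, 41.4, 34.8 and 47.7 CPM in HuCC-T1 tumors and 107, 106, 87.6, 85.9 and 91.3 CPM in the EGI-1 tumors. The order of the models was EGI-1, then HuCC-A1, then HuCC-T1, and each step passed. The log2 fold change was -0.70 ± 0.203 for HuCC-A1 against EGI-1 (adjusted p = 0.00734), 0.71 ± 0.204 for HuCC-A1 against HuCC-T1 (adjusted p = 0.00651) and -1.41 ± 0.206 for HuCC-T1 against EGI-1 tumors (adjusted p = 2.19e-05).

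Per kb of exon, the D-type cyclins summed to 88.6 ± 18.1 CPM per kb in HuCC-A1, 99.8 ± 17.5 in HuCC-T1 and 142 ± 12.3 in EGI-1 tumors (SD, n = 5 each). CCND2 made up 15 ± 2.22% of that sum in HuCC-A1 tumors (11.7 to 17.9%), against at most 0.186% in a HuCC-T1 tumor and 0.0400% in an EGI-1 tumor. CCND1 was 73.5 ± 3.62% of it in HuCC-A1, 93.5 ± 2.17% in HuCC-T1 and 88.3 ± 1.76% in EGI-1 tumors. The composition of the D-type cyclins therefore set HuCC-A1 apart, while CCND1 was the largest part in every tumor.

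CDK6, a catalytic partner of the D-type cyclins, set HuCC-T1 apart. CDK6 (chr7:92604921-92836594, minus strand) had 150, 132, 99.0, 109 and 104 CPM in HuCC-A1 tumors, against 510, 769, 735, 568 and 643 CPM in HuCC-T1 tumors and 84.7, 73.9, 81.4, 85.2 and 96.6 CPM in the EGI-1 tumors. The models did not overlap. HuCC-T1 tumors were 7.65-fold higher than EGI-1 tumors (log2 fold change 2.93 ± 0.162, adjusted p = 2.52e-10), and HuCC-A1 tumors were 5.42-fold lower than HuCC-T1 tumors (adjusted p = 1.49e-09).

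HuCC-A1 tumors were 1.41-fold higher in CDK6 than EGI-1 tumors (log2 fold change 0.50 ± 0.151, adjusted p = 0.00988). With no filter on low counts this difference had an adjusted p of 0.0539.

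CDK4, the other partner, varied less. It had 60.7, 76.7, 54.6, 47.1 and 76.2 CPM in HuCC-A1 tumors, against 41.2, 37.7, 30, 33.9 and 64.9 CPM in HuCC-T1 tumors and 76.6, 65.4, 55.4, 51.7 and 47.6 CPM in the EGI-1 tumors. The tumors of all models overlapped. HuCC-A1 and EGI-1 tumors did not differ past the threshold (log2 fold change 0.09 ± 0.205, adjusted p = 0.736), HuCC-A1 tumors were 1.52-fold higher than HuCC-T1 tumors (adjusted p = 0.019) and HuCC-T1 tumors 1.43-fold lower than EGI-1 tumors (adjusted p = 0.0439).

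Both CDK4 calls were lost without some tumors. The call against HuCC-T1 had adjusted p values of 0.0509 to 0.0634 without HuCC-A1 replicate 2 or 5 or HuCC-T1 replicate 3 or 4. The call of HuCC-T1 against EGI-1 had values of 0.0528 to 0.122 without HuCC-A1 replicate 3, any of HuCC-T1 replicates 1 to 4 or EGI-1 replicate 1, 2 or 3. Of the exon bases of CDK4, 43.2% overlap TSPAN31 on the other strand, and whether the counting used strand is not given in the sources used here.

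Per kb of exon, CDK6 was 33.0 ± 5.21% of CDK6 and CDK4 together in HuCC-A1, 80.0 ± 5.90% in HuCC-T1 and 27.3 ± 5.13% in EGI-1 tumors (SD, n = 5 each). The lowest HuCC-T1 tumor, replicate 5, was at 71.9% and the highest tumor of the other models, HuCC-A1 replicate 1, at 38.9%. The sum of both kinases was 29.6 ± 4.84 CPM per kb in HuCC-A1, 65.7 ± 9.25 in HuCC-T1 and 25.6 ± 3.40 in EGI-1 tumors.

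**Figure D2:**
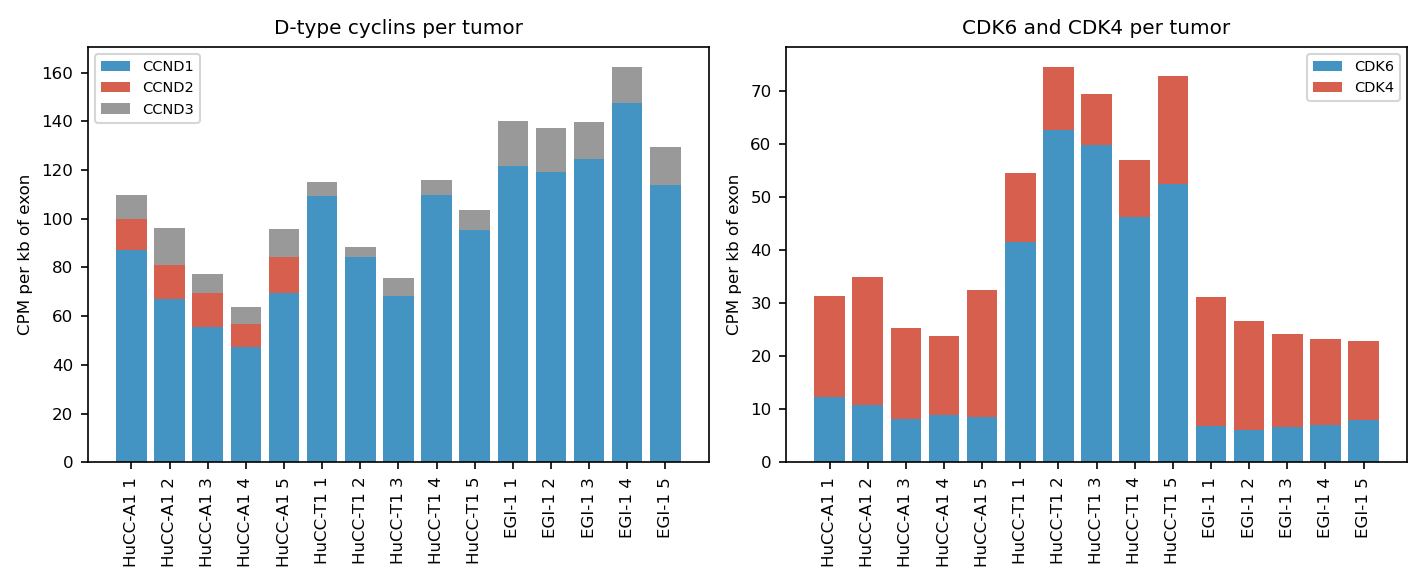
Stacked levels in CPM per kb of exon of CCND1, CCND2 and CCND3 (left) and of CDK6 and CDK4 (right), 1 bar per tumor, with the 5 HuCC-A1, 5 HuCC-T1 and 5 EGI-1 tumors from left to right. CCND2 is visible only in HuCC-A1 tumors, at 11.7 to 17.9% of the bar, and CDK6 takes 71.9 to 86.4% of the bar in HuCC-T1 tumors.

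CCNE1, a cyclin that activates CDK2 at the entry into S phase, was highest in EGI-1 tumors. It had 5.10, 8.80, 8.29, 6.70 and 8.19 CPM in HuCC-A1 tumors, against 3.42, 3.56, 4.08, 2.83 and 9.09 CPM in HuCC-T1 tumors and 20, 22.1, 14.8, 22 and 12.5 CPM in the EGI-1 tumors. No tumor of HuCC-A1 or HuCC-T1 reached the lowest EGI-1 tumor. HuCC-A1 tumors were 2.47-fold lower than EGI-1 tumors (log2 fold change -1.30 ± 0.292, adjusted p = 0.00106) and HuCC-T1 tumors 3.97-fold lower than EGI-1 tumors (-1.99 ± 0.299, adjusted p = 2.86e-05).

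Between HuCC-A1 and HuCC-T1 tumors CCNE1 did not pass (log2 fold change 0.69 ± 0.292, adjusted p = 0.0538). It passed without HuCC-T1 replicate 5, where it was 1.07 (adjusted p = 0.000753), and without HuCC-A1 replicate 1 (0.78, adjusted p = 0.0376). CCNE2, the other E-type cyclin, averaged 5.63 ± 1.77 CPM in HuCC-A1, 6.12 ± 1.77 CPM in HuCC-T1 and 6.01 ± 1.06 CPM in the EGI-1 tumors (SD, n = 5 each) and passed nowhere. Their kinase CDK2 averaged 40.3 ± 10.5, 25.6 ± 6.16 and 48.1 ± 3.86 CPM in that order of models, and HuCC-T1 tumors were 1.88-fold lower than EGI-1 tumors (adjusted p = 0.000503).

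RB1, the pocket protein that restrains E2F factors, was present in every tumor. Its levels were 61.6, 45.7, 67.0, 59.5 and 47.4 CPM in HuCC-A1 tumors, against 55.2, 121, 91.9, 74.5 and 66.6 CPM in HuCC-T1 tumors and 30.3, 34.8, 42.9, 41.4 and 50 CPM in the EGI-1 tumors. HuCC-T1 tumors were 2.05-fold higher than EGI-1 tumors with no overlap (log2 fold change 1.04 ± 0.198, adjusted p = 0.000306).

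HuCC-A1 tumors were 1.41-fold higher in RB1 than EGI-1 tumors (adjusted p = 0.0403) and 1.45-fold lower than HuCC-T1 tumors (adjusted p = 0.0266). The call against EGI-1 was lost, at adjusted p values of 0.0549 to 0.13, without HuCC-A1 replicate 1, 3 or 4, HuCC-T1 replicate 3 or 4 or EGI-1 replicate 1, 2, 3 or 4. The call against HuCC-T1 was lost, at 0.0523 to 0.0907, without HuCC-A1 replicate 2 or 5 or HuCC-T1 replicate 2 or 3.

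The activating E2F factors were lowest in HuCC-T1 tumors. E2F1 had 25.8, 44.5, 28.8, 28.3 and 45.5 CPM in HuCC-A1 tumors, against 16.4, 10.4, 9.5, 12.9 and 33.0 CPM in HuCC-T1 tumors and 62.6, 62.6, 45.3, 41.0 and 25.8 CPM in the EGI-1 tumors. E2F2 had 13.5, 6.90, 11.8, 18.1 and 19.0 CPM in HuCC-A1 tumors, against 1.69, 1.18, 1.23, 2.01 and 7.29 CPM in HuCC-T1 tumors and 9.85, 11.9, 10.2, 8.94 and 6.89 CPM in the EGI-1 tumors. HuCC-T1 replicate 5 was the highest of its model in both and the only HuCC-T1 tumor to overlap with the other models.

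For E2F1 the log2 fold change was 1.07 ± 0.321 in HuCC-A1 against HuCC-T1 tumors (adjusted p = 0.00885) and -1.53 ± 0.323 in HuCC-T1 against EGI-1 tumors (adjusted p = 0.000752). For E2F2 it was 2.36 ± 0.443 (adjusted p = 0.000215) and -1.83 ± 0.436 (adjusted p = 0.002) in these comparisons, and 3.16 and -2.64 without HuCC-T1 replicate 5. HuCC-A1 and EGI-1 tumors did not differ past the threshold in E2F1 (-0.46 ± 0.316, adjusted p = 0.233) or E2F2 (0.54 ± 0.417, adjusted p = 0.288).

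Over the 11 G1 genes, HuCC-A1 tumors were higher in 6 and lower in 3 than HuCC-T1 tumors, and HuCC-T1 tumors higher in 2 and lower in 7 than EGI-1 tumors. These were 81.8% of the G1 genes in both comparisons, against 56.3% and 52.3% of all genes. Without HuCC-T1 replicate 5 the counts were 7 higher and 3 lower, and 2 higher and 6 lower, or 90.9% and 72.7%, against 55.3% and 50.7% of all genes.

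**Figure D3:**
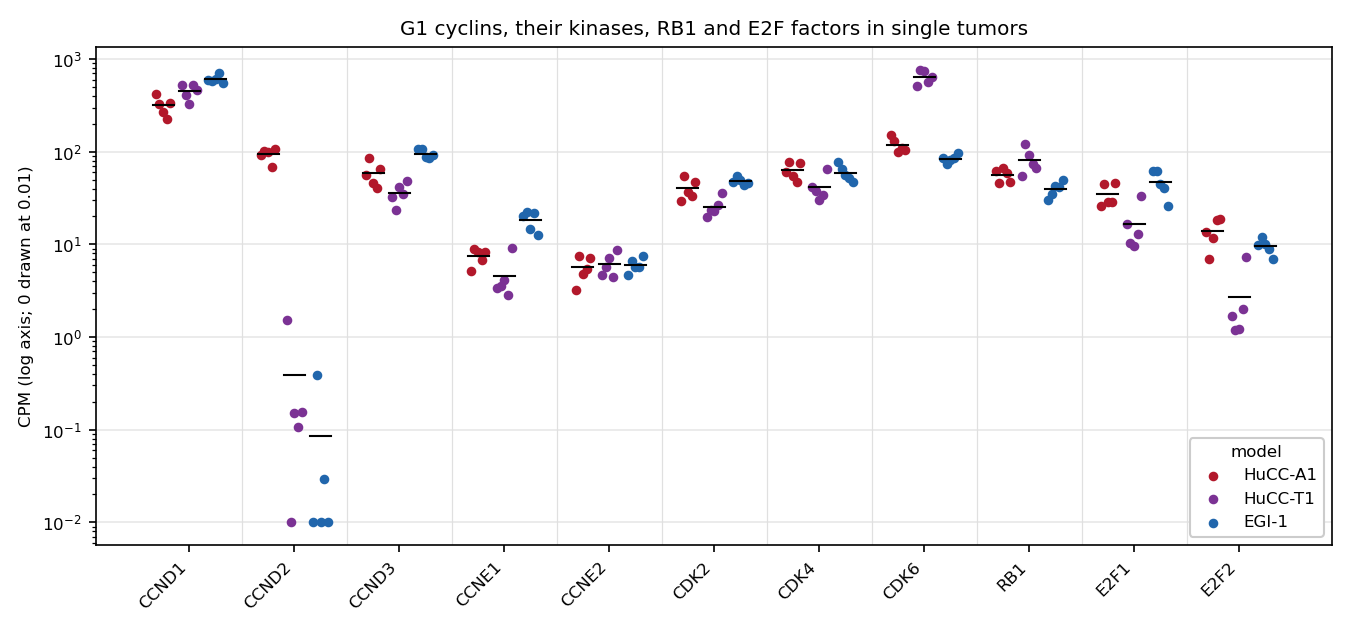
CPM on a log axis of the 11 G1 genes in single tumors, with HuCC-A1, HuCC-T1 and EGI-1 tumors from left to right within each gene, bars at the mean and values of 0 drawn at 0.01. CCND2 is at 68.6 to 107 CPM in HuCC-A1 tumors and at or below 1.53 CPM elsewhere, and CDK6 is at 510 to 769 CPM in HuCC-T1 tumors.

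CDK inhibitors separated the models further, and 8 of them were fixed as a list. CDKN2A, the gene of p16 and ARF, had 0 counts in all HuCC-A1 tumors, 215, 144, 149, 181 and 198 CPM in HuCC-T1 tumors and 0 counts in all 5 of the EGI-1 tumors. Its neighbour CDKN2B, the gene of p15, had 0 counts in all HuCC-A1 tumors, 149, 222, 201, 207 and 238 CPM in HuCC-T1 tumors and 0 counts in 4 EGI-1 tumors, with 2 counts in EGI-1 replicate 5. Transcripts of both genes were thus detected throughout HuCC-T1 tumors and hardly elsewhere.

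Against a floor of 3 counts over the 5 tumors of a model, CDKN2A was at least 8840-fold lower in HuCC-A1 than in HuCC-T1 tumors (adjusted p = 7.28e-10) and at least 10800-fold higher in HuCC-T1 than in EGI-1 tumors (adjusted p = 8.64e-10). CDKN2B was at least 10100-fold lower in HuCC-A1 than in HuCC-T1 tumors (adjusted p = 1.01e-11). The ratio of CDKN2B in HuCC-T1 to EGI-1 tumors was 18600 (95% exact Poisson interval of the 2 counts 5140 to 153000, adjusted p = 1.29e-11). These floors and the interval cover counting error only. Both genes passed the filter on low counts through HuCC-T1 tumors alone, so these p-values add no support beyond the levels.

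Among the other inhibitors, CDKN1C (p57) averaged 0.684 ± 0.2 CPM in HuCC-A1, 20.4 ± 5.49 CPM in HuCC-T1 and 39.5 ± 12.8 CPM in the EGI-1 tumors, and HuCC-A1 tumors were 56.4-fold lower than EGI-1 tumors (adjusted p = 1.17e-10) and 29.2-fold lower than HuCC-T1 tumors (adjusted p = 8.5e-10). CDKN1A (p21) averaged 216 ± 67.0, 144 ± 29.6 and 398 ± 67.6 CPM in that order, 1.84-fold lower in HuCC-A1 than EGI-1 tumors (adjusted p = 0.00113) and 2.77-fold lower in HuCC-T1 than EGI-1 tumors (adjusted p = 1.12e-05). CDKN1B (p27) was 1.53-fold higher in HuCC-A1 than EGI-1 tumors (adjusted p = 0.00036), and CDKN2D (p19) 2.16-fold lower (adjusted p = 0.000538).

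CDKN2C (p18) and CDKN3, a phosphatase of CDKs, did not differ past the threshold between HuCC-A1 and EGI-1 tumors (log2 fold changes 0.28 ± 0.164, adjusted p = 0.156, and -0.44 ± 0.245, adjusted p = 0.139). Of the 8 inhibitors, 1 was higher and 3 lower in HuCC-A1 than EGI-1 tumors (55.4% of all genes were called), 3 higher and 4 lower in HuCC-A1 than HuCC-T1 tumors (56.3% of all genes), and 3 higher and 4 lower in HuCC-T1 than EGI-1 tumors (52.3% of all genes). The last 2 pairs of counts were the same without HuCC-T1 replicate 5. Overlaps of the inhibitors with other genes were not examined.

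**Figure D4:**
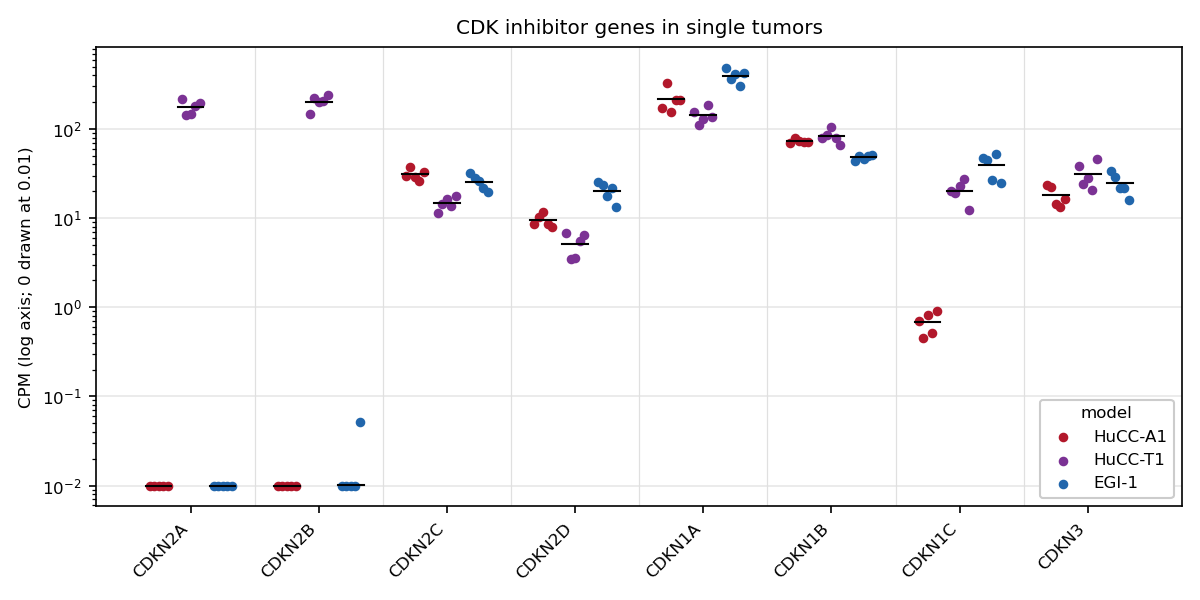
CPM on a log axis of 8 CDK inhibitor genes in single tumors, with HuCC-A1, HuCC-T1 and EGI-1 tumors from left to right within each gene, bars at the mean and values of 0 drawn at 0.01. CDKN2A and CDKN2B lie at 144 to 238 CPM in HuCC-T1 tumors and at or near 0 elsewhere, and CDKN1C is at 0.45 to 0.92 CPM in HuCC-A1 tumors.

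Replication genes were mostly highest in EGI-1 tumors. The MCM2 to MCM7 subunits form the helicase that unwinds DNA at origins, yet they did not move together. In HuCC-A1 against EGI-1 tumors MCM3, MCM4, MCM5 and MCM6 were lower, by log2 fold changes of -1.24 to -1.08, while MCM2 and MCM7 were higher, by 0.75 and 0.69.

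MCM3 had 69.1, 90.3, 82.1, 71.5 and 96.3 CPM in HuCC-A1 tumors, against 84.9, 63.2, 56.4, 60 and 113 CPM in HuCC-T1 tumors and 221, 220, 201, 180 and 145 CPM in the EGI-1 tumors. MCM5 had 69.3, 74.3, 58.6, 47.1 and 78.1 CPM in HuCC-A1 tumors, against 81.4, 41.1, 40.1, 51.1 and 71.7 CPM in HuCC-T1 tumors and 192, 153, 154, 139 and 113 CPM in the EGI-1 tumors. All EGI-1 tumors lay above all others in both genes.

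HuCC-A1 tumors were 2.36-fold lower than EGI-1 tumors in MCM3 (log2 fold change -1.24 ± 0.189, adjusted p = 2.69e-05) and 2.29-fold lower in MCM5 (-1.20 ± 0.209, adjusted p = 0.000107). HuCC-T1 tumors were 2.56-fold lower than EGI-1 tumors in MCM3 (adjusted p = 1.34e-05) and 2.63-fold lower in MCM5 (adjusted p = 2.94e-05). HuCC-A1 and HuCC-T1 tumors differed past the threshold in neither (adjusted p = 0.62 for MCM3 and 0.432 for MCM5).

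MCM4 had 88.3, 107, 84.5, 85.5 and 105 CPM in HuCC-A1 tumors, against 127, 133, 119, 143 and 266 CPM in HuCC-T1 tumors and 234, 198, 226, 177 and 162 CPM in the EGI-1 tumors. Here HuCC-A1 tumors lay below all others. They were 2.12-fold lower than EGI-1 tumors (log2 fold change -1.08 ± 0.198, adjusted p = 0.00017) and 1.68-fold lower than HuCC-T1 tumors (-0.75 ± 0.197, adjusted p = 0.00379). HuCC-T1 against EGI-1 tumors had -0.34 ± 0.196 (adjusted p = 0.158), and passed at -0.61 (adjusted p = 0.00156) without HuCC-T1 replicate 5, the highest of the 15 tumors.

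MCM6, whose upstream sequence is printed above, averaged 32.7 ± 6.42 CPM in HuCC-A1, 47.1 ± 12.0 CPM in HuCC-T1 and 73.2 ± 5.09 CPM in the EGI-1 tumors (SD, n = 5 each). HuCC-A1 tumors were 2.24-fold lower than EGI-1 tumors (adjusted p = 1.57e-05) and 1.44-fold lower than HuCC-T1 tumors (adjusted p = 0.0121), and HuCC-T1 tumors 1.55-fold lower than EGI-1 tumors (adjusted p = 0.00393).

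MCM7 (chr7:100092728-100101940, minus strand) had 211, 313, 262, 240 and 350 CPM in HuCC-A1 tumors, against 164, 91.7, 92.5, 104 and 157 CPM in HuCC-T1 tumors and 218, 196, 157, 151 and 130 CPM in the EGI-1 tumors. HuCC-A1 tumors lay above all HuCC-T1 tumors, and only HuCC-A1 replicate 1 fell within the EGI-1 range. They were 1.62-fold higher than EGI-1 tumors (log2 fold change 0.69 ± 0.203, adjusted p = 0.00767) and 2.26-fold higher than HuCC-T1 tumors (1.18 ± 0.205, adjusted p = 0.000106). HuCC-T1 against EGI-1 tumors had -0.48 ± 0.203 (adjusted p = 0.0533) and passed without HuCC-A1 replicate 1, EGI-1 replicate 5, HuCC-T1 replicate 1 or HuCC-T1 replicate 5, at adjusted p values of 0.0212 to 0.0487.

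MCM2 was 1.68-fold higher in HuCC-A1 than EGI-1 tumors (48.4 ± 10.6 CPM against 28.8 ± 2.48 CPM, adjusted p = 0.0122), with no overlap. In HuCC-A1 against HuCC-T1 tumors it passed only without HuCC-T1 replicate 5 (log2 fold change 0.75, adjusted p = 0.000828). Of its exon bases 23.6% overlap genes on the other strand.

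CDC6, which loads the helicase onto origins, had 42.5, 61.7, 32.2, 31.8 and 37.3 CPM in HuCC-A1 tumors, against 19.2, 27.0, 14.6, 16.4 and 45.5 CPM in HuCC-T1 tumors and 75.5, 80.5, 73.8, 58.3 and 57.4 CPM in the EGI-1 tumors. All HuCC-T1 tumors lay below all EGI-1 tumors. HuCC-T1 tumors were 2.81-fold lower than EGI-1 tumors (log2 fold change -1.49 ± 0.273, adjusted p = 2e-04) and HuCC-A1 tumors 1.68-fold lower than EGI-1 tumors (adjusted p = 0.0247).

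HuCC-A1 tumors were 1.67-fold higher in CDC6 than HuCC-T1 tumors (adjusted p = 0.0259). This call had adjusted p values of 0.077 to 0.0899 without HuCC-A1 replicate 2 or HuCC-T1 replicate 1, 3 or 4, and a log2 fold change of 1.07 (adjusted p = 0.000549) without HuCC-T1 replicate 5.

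TYMS, which makes the thymidine nucleotide for DNA synthesis, had 8.89, 8, 8.69, 9.21 and 16.9 CPM in HuCC-A1 tumors, against 7.35, 5.57, 5.31, 6.46 and 10.2 CPM in HuCC-T1 tumors and 25.6, 22.8, 24.9, 26.1 and 19.9 CPM in the EGI-1 tumors. EGI-1 tumors lay above all others. HuCC-A1 tumors were 2.31-fold lower (log2 fold change -1.20 ± 0.226, adjusted p = 0.000215) and HuCC-T1 tumors 3.42-fold lower (-1.77 ± 0.230, adjusted p = 6.08e-06) than EGI-1 tumors.

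HuCC-A1 tumors were 1.48-fold higher in TYMS than HuCC-T1 tumors (adjusted p = 0.0399). That call was lost, at adjusted p values of 0.0528 to 0.185, without HuCC-A1 replicate 4 or 5, any of HuCC-T1 replicates 1 to 4 or any of EGI-1 replicates 1 to 4. Of the exon bases of TYMS 46.6% overlap ENOSF1 and TYMSOS on the other strand.

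RRM2, a subunit of ribonucleotide reductase, was 1.49-fold lower in HuCC-A1 (adjusted p = 0.0202) and 1.93-fold lower in HuCC-T1 (adjusted p = 0.000752) than in EGI-1 tumors. In HuCC-A1 against HuCC-T1 tumors it passed only without HuCC-T1 replicate 5 (log2 fold change 0.51, adjusted p = 0.0294), and 20.2% of its exon bases lie in another gene on the same strand. PCNA, the sliding clamp of the polymerases, averaged 148 ± 38.8 CPM in HuCC-A1, 104 ± 27.2 CPM in HuCC-T1 and 146 ± 25.8 CPM in the EGI-1 tumors, and 3 pseudogenes share its symbol.

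PCNA was 1.42-fold higher in HuCC-A1 than HuCC-T1 tumors (adjusted p = 0.0387) and 1.40-fold lower in HuCC-T1 than EGI-1 tumors (adjusted p = 0.0499). The call against HuCC-T1 was lost at 0.0508 to 0.131 without EGI-1 replicate 2, HuCC-A1 replicate 2, 3 or 5 or any of HuCC-T1 replicates 1 to 4. The call against EGI-1 was lost at 0.0505 to 0.126 without HuCC-A1 replicate 3, 4 or 5, any of HuCC-T1 replicates 1 to 4 or EGI-1 replicate 1, 2 or 3.

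Over the 10 replication genes, HuCC-A1 tumors were higher in 4 and lower in 2 than HuCC-T1 tumors, and HuCC-T1 tumors higher in 0 and lower in 7 than EGI-1 tumors. These were 60% and 70% of the replication genes, against 56.3% and 52.3% of all genes. Leaving out HuCC-T1 replicate 5 gave 6 higher and 2 lower, and 0 higher and 9 lower, or 80% and 90%, against 55.3% and 50.7% of all genes. For HuCC-A1 against HuCC-T1 tumors the count called fell to 3 without HuCC-T1 replicate 1, 3 or 4, against 6 with all tumors.

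Among the roles of the set, the 17 mitosis genes had the lowest share called in each comparison, which did not hold for the wider lists between HuCC-A1 and EGI-1 tumors (below). MKI67 had 199, 127, 82.3, 128 and 116 CPM in HuCC-A1 tumors, against 178, 183, 149, 136 and 362 CPM in HuCC-T1 tumors and 154, 172, 150, 135 and 144 CPM in the EGI-1 tumors. The ranges overlapped, and HuCC-T1 replicate 5 was the highest of the 15 tumors. Neither HuCC-A1 against EGI-1 (log2 fold change -0.22 ± 0.247, adjusted p = 0.477) nor HuCC-T1 against EGI-1 tumors (0.41 ± 0.247, adjusted p = 0.171) passed.

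HuCC-A1 tumors were 1.55-fold lower in MKI67 than HuCC-T1 tumors (adjusted p = 0.0384). Without HuCC-T1 replicate 5 the log2 fold change was -0.33 (adjusted p = 0.166), against -0.63 ± 0.248 with it, and the call was also lost, at adjusted p values of 0.0628 to 0.0753, without HuCC-A1 replicate 2, 3 or 5.

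BIRC5 and AURKB, partners in the chromosomal passenger complex that corrects spindle attachments, were lower in HuCC-A1 and HuCC-T1 than in EGI-1 tumors. BIRC5 (survivin) had 55.8, 61.3, 32.2, 31.5 and 37.7 CPM in HuCC-A1 tumors, against 64.7, 25.2, 24.9, 26.6 and 68.5 CPM in HuCC-T1 tumors and 156, 105, 87.7, 76.9 and 67.5 CPM in the EGI-1 tumors. AURKB had 19.7, 39.3, 22.4, 21.7 and 25.7 CPM in HuCC-A1 tumors, against 19.6, 11.5, 13.7, 12.0 and 31.5 CPM in HuCC-T1 tumors and 58.3, 54.9, 42.2, 41.5 and 35.2 CPM in the EGI-1 tumors. In AURKB only HuCC-A1 replicate 2 reached the EGI-1 range, and in BIRC5 only HuCC-T1 replicate 5.

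HuCC-A1 tumors were 2.26-fold lower in BIRC5 (log2 fold change -1.18 ± 0.324, adjusted p = 0.00514) and 1.80-fold lower in AURKB (-0.85 ± 0.266, adjusted p = 0.0116) than EGI-1 tumors. HuCC-T1 tumors were 2.35-fold lower in BIRC5 (-1.23 ± 0.324, adjusted p = 0.00405) and 2.63-fold lower in AURKB (-1.39 ± 0.269, adjusted p = 0.000336) than EGI-1 tumors. HuCC-A1 against HuCC-T1 tumors passed in AURKB only without HuCC-T1 replicate 5 (0.84, adjusted p = 0.00467).

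FOXM1, the transcription factor of the mitotic program, had 110, 105, 62.0, 69.2 and 80.2 CPM in HuCC-A1 tumors, against 56.5, 40.4, 40.1, 34.1 and 123 CPM in HuCC-T1 tumors and 55.0, 48.4, 56.3, 52.0 and 47.1 CPM in the EGI-1 tumors. All HuCC-A1 tumors lay above all EGI-1 tumors (1.65-fold higher, log2 fold change 0.72 ± 0.282, adjusted p = 0.0383). The call was lost at adjusted p values of 0.0519 to 0.107 without HuCC-A1 replicate 1, 2 or 5 or any 1 EGI-1 tumor. HuCC-A1 against HuCC-T1 tumors had 0.54 ± 0.281 (adjusted p = 0.114) and passed without HuCC-T1 replicate 5 (0.98, adjusted p = 0.000281), and 15.9% of the exon bases overlap ITFG2 on the other strand.

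PLK1, a mitotic kinase, was 1.42-fold higher in HuCC-A1 than EGI-1 tumors (71.7 ± 10.8 against 50.6 ± 4.25 CPM, adjusted p = 0.0156), with no overlap, and had an adjusted p of 0.0518 without HuCC-A1 replicate 5. In PLK1, 12.5% of the exon bases overlap genes on the other strand.

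CCNB1, the cyclin of CDK1 at the entry into mitosis, had 75.1, 90.7, 68.0, 53.9 and 69.6 CPM in HuCC-A1 tumors, against 139, 102, 89.2, 72.6 and 171 CPM in HuCC-T1 tumors and 130, 123, 95.5, 93.8 and 83.2 CPM in the EGI-1 tumors. HuCC-A1 tumors were 1.61-fold lower than HuCC-T1 tumors (log2 fold change -0.68 ± 0.211, adjusted p = 0.0106) and 1.47-fold lower than EGI-1 tumors (adjusted p = 0.0324), with overlap in both. The call against EGI-1 was lost at adjusted p values of 0.0563 to 0.072 without HuCC-A1 replicate 4 or 5 or EGI-1 replicate 1 or 2.

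CDC20, the activator of the anaphase-promoting complex, had 74.6, 95.6, 67.8, 58.7 and 68.8 CPM in HuCC-A1 tumors, against 42.4, 33.8, 28.4, 28.6 and 78.0 CPM in HuCC-T1 tumors and 94.3, 80.5, 67.8, 61.6 and 51.6 CPM in the EGI-1 tumors. HuCC-T1 replicates 1 to 4 lay below every other tumor, while HuCC-T1 replicate 5 lay among them. HuCC-A1 tumors were 1.73-fold higher than HuCC-T1 tumors (log2 fold change 0.79 ± 0.251, adjusted p = 0.0127), or 1.11 without HuCC-T1 replicate 5.

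HuCC-T1 tumors were 1.68-fold lower in CDC20 than EGI-1 tumors (adjusted p = 0.0182). The log2 fold change was -1.10 without HuCC-T1 replicate 5, against -0.75 ± 0.251 with it, and the adjusted p was 0.0508 to 0.0541 without EGI-1 replicate 1 or HuCC-T1 replicate 3 or 4. HuCC-A1 against EGI-1 tumors had 0.04 ± 0.249 (adjusted p = 0.909).

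Of the remaining mitosis genes, TOP2A, which untangles DNA, was 1.47-fold lower in HuCC-T1 than EGI-1 tumors (adjusted p = 0.036), a call lost at 0.0538 to 0.104 without EGI-1 replicate 2, 3 or 5 or HuCC-T1 replicate 1, 3 or 4. CENPF, a kinetochore protein, was 1.41-fold higher in HuCC-A1 than HuCC-T1 tumors (adjusted p = 0.0421), a call lost at 0.052 to 0.186 without HuCC-A1 replicate 1, 3 or 4 or any of replicates 1 to 4 of HuCC-T1 or of EGI-1. CENPF in HuCC-A1 against EGI-1 tumors did not pass (log2 fold change 0.47 ± 0.199, adjusted p = 0.0563) but did without HuCC-A1 replicate 5 or HuCC-T1 replicate 5, at 0.0492 and 0.0322.

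In the edgeR test of all tumors, CDK1, CCNA2, CCNB2, AURKA, BUB1, BUB1B, TTK and UBE2C, which are the mitotic kinase, cyclins, spindle kinases, checkpoint proteins and a ubiquitin enzyme, passed in no comparison. Their log2 fold changes lay between -0.35 and 0.36 in HuCC-A1 against EGI-1 tumors, between 0.03 and 0.70 in HuCC-A1 against HuCC-T1 tumors and between -0.58 and 0.22 in HuCC-T1 against EGI-1 tumors. Their standard errors were 0.182 to 0.355, and UBE2C has 4 pseudogenes by symbol.

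Without HuCC-T1 replicate 5, which was picked by its levels in these same genes, 6 of these 8 genes passed. AURKA (adjusted p = 0.00177), UBE2C (0.00825), CCNB2 (0.0127) and TTK (0.0393) were then higher in HuCC-A1 than HuCC-T1 tumors. BUB1 (adjusted p = 0.00392), UBE2C (0.0154), CDK1 (0.0238), TTK (0.039), AURKA (0.0391) and CCNB2 (0.0401) were then lower in HuCC-T1 than EGI-1 tumors.

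HuCC-T1 replicate 5 decided how many of the 17 mitosis genes passed. HuCC-A1 against HuCC-T1 tumors gave 2 higher and 2 lower with it (23.5%, against 56.3% of all genes) and 10 higher and 1 lower without it (64.7%, against 55.3% of all genes). HuCC-T1 against EGI-1 tumors gave 0 higher and 4 lower with it (23.5%, against 52.3% of all genes) and 0 higher and 10 lower without it (58.8%, against 50.7% of all genes). The counts called also fell to 2 without HuCC-A1 replicate 3 in HuCC-A1 against HuCC-T1 tumors and without HuCC-T1 replicate 3 or 4 in HuCC-T1 against EGI-1 tumors, and to 3, against 5 with all tumors, without EGI-1 replicate 1 or 2 or HuCC-A1 replicate 5 in HuCC-A1 against EGI-1 tumors.

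**Figure D5:**
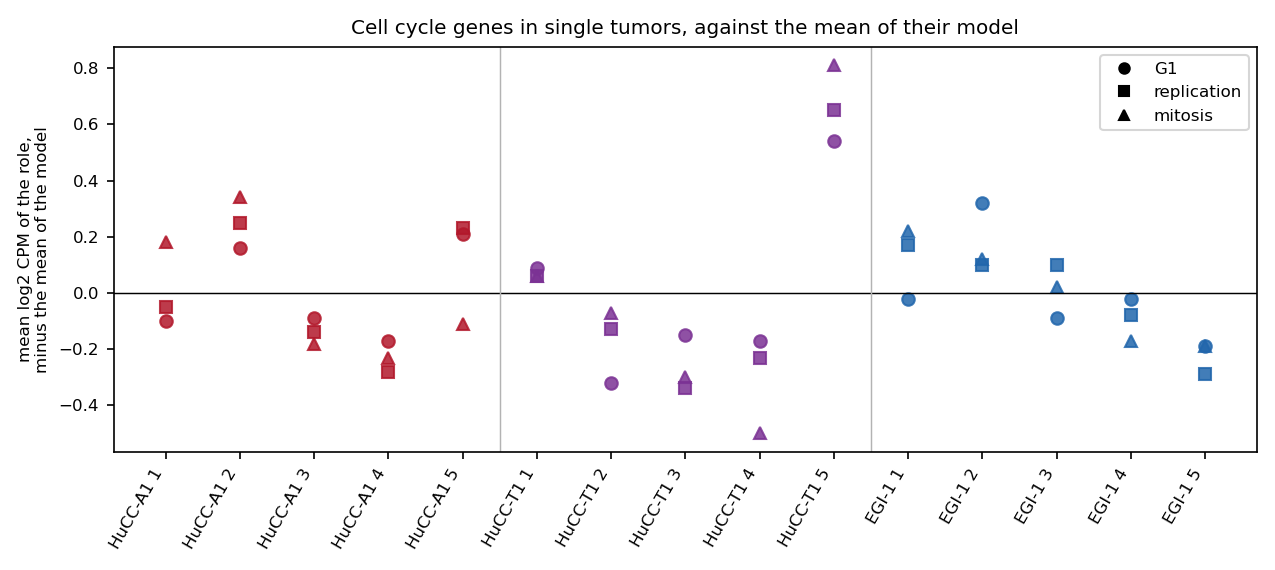
Mean log2 CPM of the 11 G1, 10 replication and 17 mitosis genes of each tumor minus the mean of its model on the y axis, with HuCC-A1, HuCC-T1 and EGI-1 tumors from left to right. HuCC-T1 replicate 5 is the highest of its model in all roles, at 0.54 for G1, 0.65 for replication and 0.81 for mitosis genes.

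Some tumors lay on the same side of their model mean in all roles. HuCC-T1 replicate 5 lay above its model mean by 0.54, 0.65 and 0.81 on the log2 scale in G1, replication and mitosis genes, and HuCC-T1 replicate 4 was at -0.17, -0.23 and -0.50. In HuCC-A1, replicate 2 was at 0.16, 0.25 and 0.34 and replicate 4, the lowest of the model in 18 of the 38 genes, at -0.17, -0.28 and -0.23. In EGI-1, replicate 5 was the lowest in 23 of the 38 genes, including 9 of 10 replication genes.

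The median coefficient of variation of the 38 genes over the tumors of a model was 21.9% in HuCC-A1, 35.3% in HuCC-T1 and 16% in EGI-1, beside 27.2%, 32.0% and 22.1% for all genes tested. The HuCC-T1 value includes replicate 5, the highest of its model in 31 of the 38 genes. A value without it is not given, so 35.3% need not be a trait of the model. As an example, CCNA2, a cyclin of S and G2 phase, ranged from 26.8 to 46.8 CPM in HuCC-A1, from 24.9 to 48.5 CPM in HuCC-T1 and from 29 to 31.2 CPM in EGI-1 tumors.

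Further cell cycle genes were read from 4 lists besides the inhibitors, and their counts stand beside 55.4% of all genes called in HuCC-A1 against EGI-1, 56.3% in HuCC-A1 against HuCC-T1 and 52.3% in HuCC-T1 against EGI-1 tumors (55.3% and 50.7% in the last pair of comparisons without HuCC-T1 replicate 5). Of 38 other replication genes, 7 were higher and 13 lower in HuCC-A1 than EGI-1 tumors (median log2 fold change -0.22, beside 0.06 for all genes). TK1, the thymidine kinase, was 2.40-fold lower (adjusted p = 0.0039), while DBF4, the activator of the origin kinase CDC7, was 2.94-fold higher (adjusted p = 8.62e-06) and RFC4, a clamp loader subunit, 2.53-fold higher (adjusted p = 6.23e-06).

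Of 40 other mitosis genes, 7 were higher and 14 lower in HuCC-A1 than EGI-1 tumors (median -0.26). In this comparison the other replication and other mitosis genes thus passed in like shares, unlike the 90% and 29.4% of these roles in the set. SPC25, a kinetochore protein, was 2.32-fold lower (adjusted p = 0.000655) and NCAPG, a condensin subunit, 2.16-fold lower (adjusted p = 3.39e-05), while SMC4, another condensin subunit, was 2.51-fold higher (adjusted p = 0.000143) and ECT2, which drives cytokinesis, 1.78-fold higher (adjusted p = 0.000252). Of the other condensin subunits on the list, NCAPH was 1.76-fold lower (adjusted p = 0.0107) and SMC2 did not pass (log2 fold change -0.10 ± 0.181, adjusted p = 0.65), both named after their values were seen.

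Of 15 genes of the RB and E2F families and the DREAM and MuvB complexes, 6 were higher and 3 lower in HuCC-A1 than EGI-1 tumors (median 0.42). E2F7, a repressive E2F factor, was 3.58-fold higher (adjusted p = 2.78e-06) and E2F4, the E2F of the DREAM complex, 2.06-fold higher (adjusted p = 0.000187), while MYBL2, the MuvB partner that activates, was 1.62-fold lower (adjusted p = 0.0306) and E2F5 1.54-fold lower (adjusted p = 0.018). Of 13 tested CDK activators and inhibitory kinases, 1 was higher and 7 lower (median -0.70), with SKP2, which targets CDKN1B for destruction, 1.41-fold higher (adjusted p = 0.00974), and PKMYT1 and WEE1, both inhibitory kinases of CDK1, 2.60-fold (adjusted p = 0.000993) and 1.81-fold lower (adjusted p = 7.25e-05).

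In HuCC-A1 against HuCC-T1 tumors 15 other replication genes were higher and 7 lower, and 10 other mitosis genes were higher and 5 lower, or 20 and 7 and 14 and 5 without HuCC-T1 replicate 5. In HuCC-T1 against EGI-1 tumors 3 other replication genes were higher and 18 lower, and 6 other mitosis genes were higher and 15 lower, or 3 and 20 and 4 and 22 without it. The RB and E2F list gave 6 higher and 2 lower, and 3 higher and 5 lower, and the list of CDK activators and inhibitory kinases 4 higher and 5 lower, and 3 higher and 6 lower, in these comparisons. Without HuCC-T1 replicate 5 they were 6 higher and 2 lower, and 2 higher and 6 lower, for the RB and E2F list, and 6 higher and 5 lower, and 3 higher and 8 lower, for the other list, of which 14 genes were then tested.

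The chromosome of a gene went along with some of these differences. Of the 5 nearest tested protein-coding genes on each side of CDK6, 9 of 10 were higher in HuCC-A1 than EGI-1 tumors (median log2 fold change 1.59, against 0.50 for CDK6) and 8 of 10 higher in HuCC-T1 than EGI-1 tumors (1.62, against 2.93 for CDK6). In HuCC-A1 against HuCC-T1 tumors the neighbours of CDK6 had a median of -0.29 and CDK6 -2.44. Next to MCM7, 9 of 10 neighbours were higher in HuCC-A1 than EGI-1 tumors (1.25, against 0.69 for MCM7). Next to PCNA it was also 9 of 10 (0.92), although PCNA itself was at 0.02. Runs of lower neighbours stood next to CCND3 in HuCC-T1 against EGI-1 tumors (8 of 10, median -1.19) and next to MCM5 in HuCC-A1 against EGI-1 tumors (8 of 10, -1). In HuCC-A1 against HuCC-T1 tumors, 9 of 10 neighbours of CCNB1 were lower (-0.99).

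On chromosome 7 as a whole, 59.6% of 696 tested protein-coding genes were higher in HuCC-A1 than EGI-1 tumors, against 30.7% over all chromosomes. Chromosome 15 was near it at 57.7%. In HuCC-T1 against EGI-1 tumors 51.4% of the chromosome 7 genes were higher, against 29.1% over all chromosomes. There chromosome X was above it at 66.1% and chromosome 3 near it at 47.8%. DBF4, RFC2 and ORC5 of the replication list also lie on chromosome 7 and were higher in HuCC-A1 than EGI-1 tumors, with log2 fold changes of 1.55, 0.56 and 1.03 (adjusted p = 8.62e-06, 0.0185 and 8.84e-06). ANLN of the mitosis list, on the same chromosome, was at 0.07 (adjusted p = 0.699). The chromosomes, these genes and the neighbourhoods named above were singled out after their values were seen. The neighbours of CCND2 gave no such run, with 3 of 10 higher and 3 of 10 lower in HuCC-A1 than EGI-1 tumors.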

How the data were processed

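RNA of 15 tumors, 5 per model, was extracted with Trizol and sequenced from directional libraries. Per the submitters' processing notes, the authors used CASAVA, HISAT2 2.0.5, GRCh38 and featureCounts 1.5.0-p3, and deposited whole-number counts per gene that were not normalized. Not given in the sources used here are the annotation release, the strand setting and whether reads from the mouse host were taken out.

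The main test was that of edgeR 4.0.16 under R 4.3.3 (TMM factors, filterByExpr, 1 quasi-likelihood fit of all 15 tumors with 12 residual degrees of freedom), with Benjamini-Hochberg adjustment over 21019 genes and a threshold of 0.05. CPM values are counts over the TMM-scaled total, times 1000000, mean log2 CPM values used a prior count of 2, and CPM per kb divides by merged exon length. Gene positions, exon lengths and exon overlaps came from a GENCODE annotation of GRCh38, which held all 58735 gene identifiers of the table. The standard error is the log2 fold change over the root of the F statistic. Overlap means that the CPM ranges of both models meet. The procedure was tested on simulated data.

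Alternatives were DESeq2 1.42.0, limma 3.58.1 with voom, RLE factors, other filters, only the 10 tumors compared, a replicate block, totals without mitochondrial genes and leaving out each tumor. The counts of lists and roles without HuCC-T1 replicate 5 were added after the values were seen. The genes and lists were chosen with earlier results of these data known. All 38 genes are accounted for. Every tumor is given for the D-type cyclins, CDK4, CDK6, CCNE1, E2F1, RB1, MKI67, CDKN2A and CDKN2B, and for the called genes with the highest absolute log2 fold change of each role and comparison (3, or 2 for HuCC-A1 against HuCC-T1). From the other lists, up to 2 called genes of highest absolute log2 fold change in each direction are named, where the mean log2 CPM was 1 or more in HuCC-A1 against EGI-1 tumors, and all CDK inhibitors. A gene that this rule picks from the replication list is not reported here.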

Additional observations from a re-analysis of the deposited data

Results flagged for a closer look

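Within each model, the highest and lowest of the 5 tumors were set against the others for each of the 38 genes by the ratio of the gap to the range (Dixon's critical value 0.71). Of 114 groups of 5 tumors, 12 held a tumor past it. Chance flags about 1 in 20 groups of independent, normally distributed values. The 38 genes share tumors and all 12 flags were at the highest end, so the 12 cannot be set against that rate. In 7 of them the tumor was HuCC-T1 replicate 5, at 9.09 CPM for CCNE1, 7.29 CPM for E2F2, 67.5 CPM for MCM2, 266 CPM for MCM4, 362 CPM for MKI67, 78.0 CPM for CDC20 and 123 CPM for FOXM1, each the highest of its model. The others were CCND2 at 1.53 CPM in HuCC-T1 replicate 1 and at 0.393 CPM in EGI-1 replicate 2, TYMS at 16.9 CPM in HuCC-A1 replicate 5, CENPF at 177 CPM in HuCC-A1 replicate 1 and UBE2C at 120 CPM in HuCC-A1 replicate 2, also each the highest of its model. HuCC-T1 replicate 5 had a leukocyte marker sum of 15.2 CPM, the lowest of its model, and an endothelial sum of 17.6 CPM, within its model's range. The part of these in its levels was not tested.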

How the results depend on the processing

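Of 905 log2 fold changes of the 38 genes recomputed under 8 other settings, 844 kept their direction and their side of the threshold. Of 1710 with 1 tumor left out, 1521 did. Counts are not among these values and are named below where they moved past 1.5 times. No call changed direction. Leaving out any 1 tumor kept 16 of the 20 calls in HuCC-A1 against EGI-1 tumors, 12 of 19 in HuCC-A1 against HuCC-T1 tumors and 15 of 20 in HuCC-T1 against EGI-1 tumors. With the 8 other settings added, 15, 12 and 15 calls were kept in this order. Most often lost under those 8, in 4 each, were CCND1 in HuCC-T1 against EGI-1 and TYMS and CENPF in HuCC-A1 against HuCC-T1 tumors. With no filter, RB1 (adjusted p = 0.0943) and PLK1 (0.0603) were also lost in HuCC-A1 against EGI-1 tumors. Only 4 of the 38 genes were higher in HuCC-A1 than EGI-1 tumors with no filter on low counts, against 7, for which the cause was not tested. With at least 10 counts in every library, where 13786 genes were tested, 4081 of all genes were higher. In HuCC-A1 against HuCC-T1 tumors, 3 replication and 2 mitosis genes passed with only the 10 tumors compared, and 8 mitosis genes with limma-voom, against 6 and 4, and the cause was not tested.

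With 1 tumor left out, 3 to 6 mitosis genes passed in HuCC-A1 against EGI-1 tumors and 2 to 10 in HuCC-T1 against EGI-1 tumors. In HuCC-A1 against HuCC-T1 tumors 7 to 23 genes were higher, and 2 to 11 mitosis and 3 to 8 replication genes passed.

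The signs that turned belonged to differences that had not passed, and the cause was not tested. With no filter, log2 fold changes in HuCC-A1 against EGI-1 tumors were -0.05 for PCNA, -0.03 for CDC20 and -0.07 for TTK, and in HuCC-A1 against HuCC-T1 tumors -0.06 for CDK1, -0.01 for CCNA2, -0.04 for BUB1 and -0.02 for BIRC5. With only the 10 tumors compared, TTK was at 0 and CDK1 at -0.02. With totals without mitochondrial genes, PCNA was at -0.04, CDC20 at -0.02, TTK at -0.05, CDK1 at -0.03 and BUB1 at -0.01. With limma-voom, TTK was at -0.02 and, in HuCC-T1 against EGI-1 tumors, CCNE2 at -0.01.

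The ranges here cover all 23 alternatives, which are the other settings and the fits with 1 tumor left out. HuCC-A1 against EGI-1 tumors gave -0.22 to 0.03 for CCNE2, -0.13 to 0.06 for TTK, -0.13 to 0.08 for PCNA, -0.08 to 0.14 for CDC20 and -0.27 to 0.27 for UBE2C. HuCC-A1 against HuCC-T1 tumors gave -0.27 to 0.02 for CCNE2, -0.05 to 0.20 for CCNA2, -0.09 to 0.28 for BUB1, -0.10 to 0.29 for BIRC5, -0.14 to 0.25 for CDK1 and -0.04 to 0.43 for BUB1B. HuCC-T1 against EGI-1 tumors gave -0.13 to 0.14 for CCNE2, -0.23 to 0.08 for CENPF, -0.02 to 0.46 for MCM2, -0.06 to 0.25 for CCNB1, -0.09 to 0.38 for BUB1B and -0.28 to 0.33 for FOXM1.

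Tumors of different models with the same replicate number did not visibly deviate together (median correlation of deviations 0.03, -0.10 to 0.19 over 15 pairs). Pairs with different numbers had a median of -0.01 (-0.22 to 0.22 over 60 pairs). Such correlations cannot show whether same-numbered tumors were handled together. With a replicate block, 11377 of all genes passed in HuCC-A1 against EGI-1 tumors, against 11647, with all 20 calls among the 38 genes kept, 18 of 19 kept in HuCC-A1 against HuCC-T1 and 20 of 20 in HuCC-T1 against EGI-1 tumors. PCNA was then at -0.01 in HuCC-A1 against EGI-1 tumors. Counts of a few reads, as for CCND2 outside HuCC-A1 tumors, limit the precision of its folds.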
